A study of Bos taurus with 16 samples.

Results

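Proteasome subunits and ubiquitin-conjugating enzymes were followed in the corpus luteum, the progesterone-secreting gland of the ovary, of Japanese Black cattle. Genes were taken by symbol: every non-control spot of the array whose gene symbol begins with PSMA, PSMB, PSMC, PSMD, PSME or UBE2, with the brightest spot for each gene. This gave 46 genes, 34 proteasome subunits and 12 ubiquitin-conjugating enzymes, of 6763 genes that could be named on the array's 15208 probes. Each of the 46 had 1 spot. All 46 passed the filter on dim probes, and 45 of them were well above background on all 16 arrays. The exception was UBE2E3, which was well above background on 3 of 4 arrays in the cyclic and P40-45 groups and on all arrays of the other groups. No spot of the 46 was saturated or carried an outlier flag.

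The glands came from 16 cows in 4 groups of 4 animals. Cyclic cows were sampled on days 10-12 of the estrous cycle. Pregnant cows formed the groups P20-25, P40-45 and P150-160, named for the days of gestation, where insemination fell on day 1. The labels name no treatment, genotype or age of the cows, and RNA came from luteal tissue with all its cell types. Lower RNA of a gene can therefore come from fewer cells of a type or from less RNA per cell, which cannot be told apart. The age of the gland and pregnancy cannot be told apart either.

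Proteins to be destroyed are tagged with chains of ubiquitin. An activating enzyme (E1) passes ubiquitin to a conjugating enzyme (E2, the UBE2 family), and a ligase (E3) guides it to the substrate. Tagged proteins are degraded by the proteasome, a barrel of alpha (PSMA) and beta (PSMB) subunits with a cap of ATPases (PSMC) and other subunits (PSMD) that bind, unfold and feed in the substrate. The catalytic beta subunits PSMB5, PSMB6 and PSMB7 can be replaced by PSMB8, PSMB9 and PSMB10. The resulting immunoproteasome, with the activator made of PSME1 and PSME2, favours peptides suited to MHC class I and is classically induced by interferon. In the ruminant corpus luteum, genes induced by interferon are known to respond in early pregnancy to interferon tau from the conceptus.

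The array reads each gene with a probe of 60 bases. The last 30 bases of the probes of the 5 immunoproteasome genes and of UBE2F and UBE2H, the genes that the results turn on, follow in 5′ to 3′ direction as the scanner files give them, with a polyadenylation hexamer (AATAAA or ATTAAA) in capitals.
PSMB8: gctgggtgaaagtggaaagtacagatgtca
PSMB9: cttctttattttgtAATAAActttctggaa
PSMB10: ccctgggaccacacctgtcctgtcccagac
PSME1: ttacctcccaggcacaAATAAAtatagtca
PSME2: gggaAATAAAtgacctatactttgtgtaga
UBE2F: tccacataaatacagccagaaaatgtgtct
UBE2H: cctaaccatgagaagcagactataatattc
The hexamer stood in the probes of 9 of the 46 genes (19.6%) and in 14.9% of all 15208 probes. The longest run of bases that any 2 of the 46 probes shared was 10, between PSMA4 and PSMD11. In the RefSeq gene order of the assembly ARS-UCD2.0, TAP1, a peptide transporter gene, lies directly between PSMB8 and PSMB9, and EMC9 lies between PSME2 and PSME1.

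The 75th percentile of the processed signal was 2020 to 4288 per array, and 71.9% to 79.6% of probes were well above background. Levels below are log2 of the processed signal minus that percentile of the same array. Each group had 2 arrays on each of 2 slides, and array position within a slide was tied to group. All 8 luteal cell markers examined, STAR and CYP11A1 of steroid synthesis among them, were well above background on all 16 arrays. The array of P20-25 replicate 4 stood apart: its mean correlation with its own group was 0.9605, against 0.968 to 0.987 for the other 15 arrays, and 10.23% of the probes tested lay over 1 log2 unit from their group's mean there, compared with 2.102% to 2.286% on the other 3 arrays of the group and up to 7.973% on the arrays of the other groups, the highest being cyclic replicate 1. The P20-25 changes of PSMC5, PSMD11, PSMD14 and UBE2V2 and some correlations are given with and without it. Other results of the P20-25 group include it.

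Few genes of the family passed the threshold between the cycle and pregnancy. With limma and adjustment over all probes tested, 0 of the 46 genes were called in P20-25 against cyclic cows at an adjusted p under 0.05, where 0.293% of all 11941 probes were called, and 0 of 46 in P40-45, where 1.23% were. In P150-160, 3 of 46 were called, all lower: PSMB9, UBE2F and UBE2H. That is a share of 6.52%, beside 7.98% of all probes called in that comparison with 3.32% called lower and 4.66% called higher. At an unadjusted p under 0.05, limma counted 6, 4 and 8 of the 46 genes in the 3 comparisons, or 13.0%, 8.70% and 17.4%, against 14.1%, 14.7% and 23.5% of all probes. The 3 comparisons share the cyclic cows.

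The changes of the family were smaller at the median than those of all probes, and less so beside those of bright probes. The median absolute log2 change of the 46 genes was 0.15, 0.10 and 0.15 in P20-25, P40-45 and P150-160 against cyclic cows, and that of all probes tested was 0.22, 0.19 and 0.25. Among the 4122 tested probes at or above the lower quartile of the 46 genes' levels the medians were 0.16, 0.16 and 0.20. The 95% interval of the change lay within 1.5-fold in either direction for 29, 33 and 26 of the 46 genes, and within 2-fold for 40, 41 and 39. Over the 4 groups, the range of group means was under 0.5 for 37 of the 46 genes (80.4%) and for 59.0% of all probes. The median change of the 46 genes was 0.03, 0.04 and −0.08, and that of all probes was 0.05, 0.01 and 0.03.

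**Figure D1:**
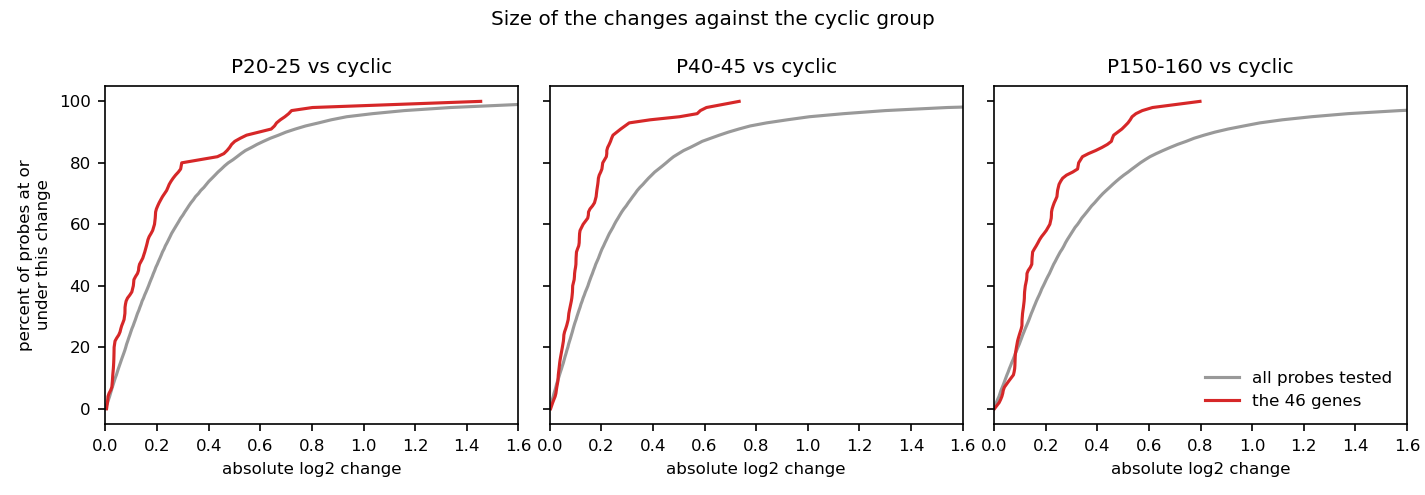
The horizontal axis gives the absolute log2 change against the cyclic group and the vertical axis the percent of probes at or under that change, for all probes tested (grey) and the 46 genes (red). In each of the 3 comparisons the red curve runs mostly to the left of the grey one, with medians of 0.15, 0.10 and 0.15 against 0.22, 0.19 and 0.25.

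PSMB9, the immunoproteasome subunit that takes the place of PSMB6, fell in P150-160 cows. Its level in the 4 cyclic cows was 3.91, 3.56, 3.99 and 4.42. In P20-25 cows it was 3.39, 3.52, 3.27 and 3.51, in P40-45 cows 2.94, 3.39, 3.21 and 3.40, and in P150-160 cows 2.94, 2.96, 3.11 and 3.67. All cows of the first 2 pregnant groups lay below all cyclic cows, and the P150-160 group overlapped the cyclic group through its replicate 4. The log2 change was −0.54 ± 0.20 (SE) in P20-25, −0.73 ± 0.20 in P40-45 and −0.80 ± 0.20 in P150-160, with limma adjusted p of 0.238, 0.0822 and 0.0223. The change in P150-160 was a level 1.74-fold lower, with a 95% interval of the ratio of 0.431 to 0.768. It was −0.79 within slide 1 and −0.81 within slide 2, with adjusted p of 0.113 and 0.313 on 2 arrays a group. The adjusted p was 0.065 without cyclic replicate 4, 0.059 without P150-160 replicate 1 and 0.0654 without P150-160 replicate 2, over a range of 0.00836 to 0.0654 with each array left out in turn, and 0.12 when only the cyclic and P150-160 groups were fitted.

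PSMB8, the neighbour of PSMB9 across TAP1 and the replacement of PSMB5, had no change past the threshold. Its level was −0.21, −0.04, −0.30 and 0.08 in cyclic cows, and −0.06, 0.18, 0.03 and 0.15 in P20-25 cows. It was −0.38, −0.06, −0.23 and −0.19 in P40-45 cows and 0.08, −0.43, −0.07 and 0.28 in P150-160 cows. All 3 pregnant groups overlapped the cyclic group. The changes were 0.19, −0.10 and 0.08 (SE 0.15), with a 95% interval of the ratio of 0.850 to 1.319 in P150-160.

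The remaining immunoproteasome genes also gave no call. PSMB10, the replacement of PSMB7, was at 2.30, 2.31, 2.82 and 2.84 in cyclic cows, 2.23, 1.99, 2.49 and 2.73 in P20-25, 2.07, 2.34, 2.32 and 2.56 in P40-45, and 2.55, 2.14, 2.27 and 2.72 in P150-160. All groups overlapped, with the higher cyclic values on slide 2, and the changes were −0.21, −0.24 and −0.15 (SE 0.20). PSME1 and PSME2 encode the subunits of the activator ring. PSME1 was at 2.69, 2.34, 2.77 and 2.90 in cyclic cows and at 2.65, 2.67, 2.86 and 3.12 in P150-160, and its changes were 0.15, 0.10 and 0.15 (SE 0.14). PSME2 was at 3.01, 2.94, 3.34 and 3.35 in cyclic cows and at 2.95, 2.75, 3.09 and 3.39 in P150-160, and its changes were −0.01, −0.04 and −0.11 (SE 0.14). Pregnant and cyclic cows overlapped for both genes. The intervals of the ratio in P150-160 were 0.676 to 1.206 for PSMB10, 0.896 to 1.373 for PSME1 and 0.748 to 1.141 for PSME2, so a 1.5-fold change of any of them in either direction lay outside its interval in that group.

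**Figure D2:**
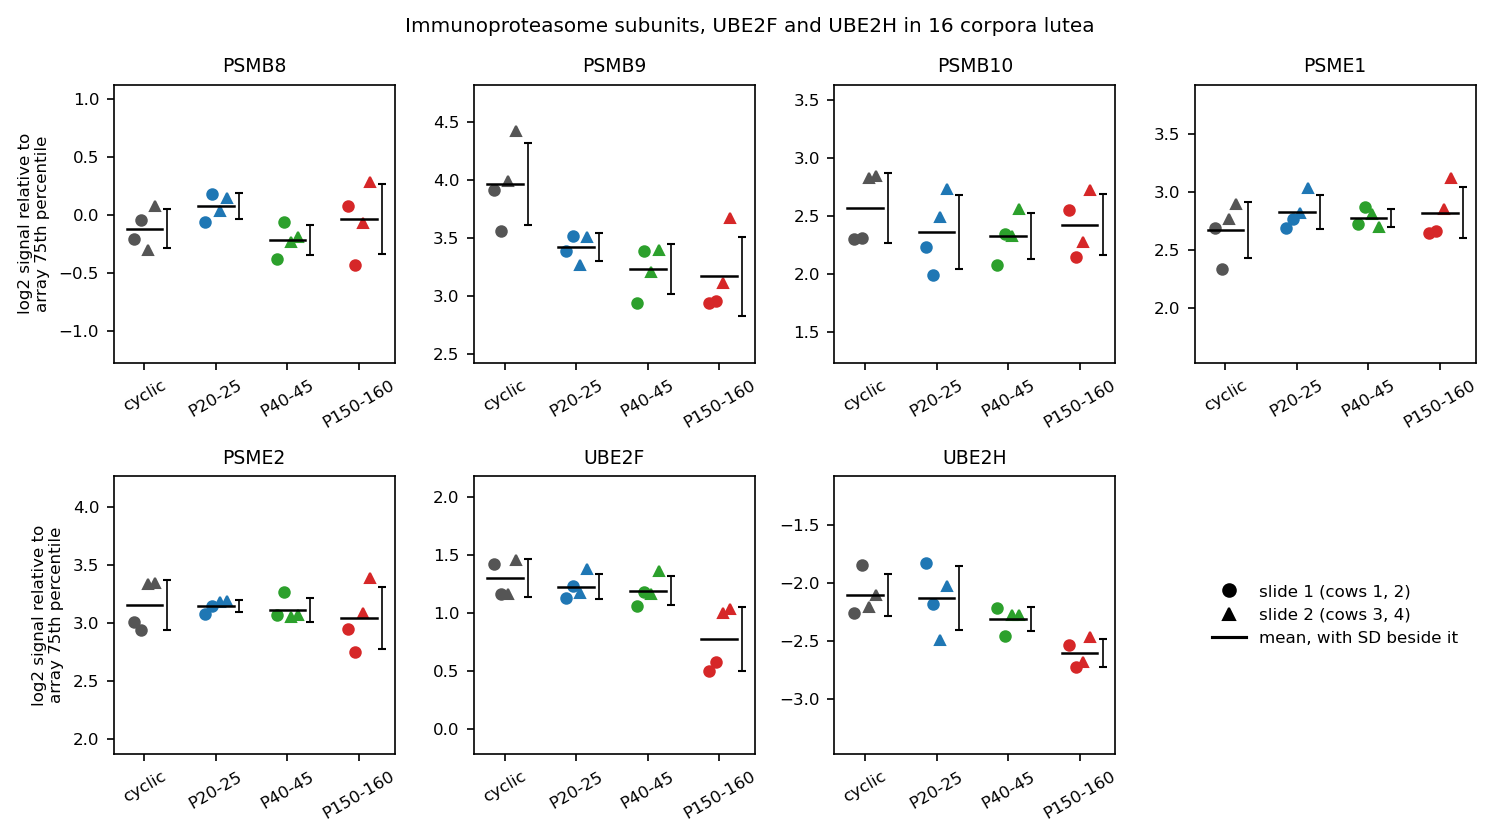
Each point is 1 cow, circles for slide 1 and triangles for slide 2, with the group on the horizontal axis and log2 signal relative to the array's 75th percentile on the vertical axis; bars are means and brackets 1 SD, and all panels span the same number of log2 units. PSMB9 runs from 3.56 to 4.42 in cyclic cows and from 2.94 to 3.67 in pregnant cows, and UBE2F and UBE2H are lower in P150-160 cows than in all cyclic cows.

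The 5 immunoproteasome genes were also set against the other 41. Their median change was −0.01, −0.10 and −0.11 in P20-25, P40-45 and P150-160, and that of the others 0.03, 0.04 and −0.08. Between cows of a group, the per-array median deviation of the immunoproteasome genes from their means had a pooled SD of 0.191, and that of the others 0.111. The first of these is larger than each difference between the medians, but it measures single cows and not a difference between groups. The difference between the medians was not tested. Within 1 array, the difference of PSMB9 and PSMB6 changed by −0.38, −0.53 and −0.39 against cyclic cows. With 4 cows a group, the smallest p an exact permutation test can give is 0.0286; the test gave 0.0286, 0.0286 and 0.0571, or 0.129, 0.129 and 0.171 after adjustment over 9 differences (two-sided). PSMB8 minus PSMB5 changed by 0.26, −0.03 and 0.31, with adjusted exact permutation p of 0.206, 0.868 and 0.386. PSMB10 minus a spot described as like PSMB7 changed by −0.20, −0.34 and 0.01, with adjusted exact permutation p of 0.551, 0.206 and 1.0.

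PSMB9 also parted from its partners within the immunoproteasome, a comparison chosen after its values were seen and given without a test. The difference of PSMB9 and PSMB8 on the same array was 3.60 to 4.34 in cyclic cows, 3.24 to 3.45 in P20-25, 3.32 to 3.58 in P40-45 and 2.86 to 3.40 in P150-160. The cyclic cows did not overlap any pregnant group. The same held for PSMB9 minus PSME1 and PSMB9 minus PSME2, and against PSMB10 for P40-45 and P150-160, but not for P20-25. Within groups the 5 genes varied together from array to array. The median correlation of deviations from the group mean over their 10 pairs was 0.627, against 0.153 over all 1035 pairs of the 46 genes. Without P20-25 replicate 4 these medians were 0.611 and 0.204. These pairs share arrays and labelling, and slide was not removed from the deviations. PSMB9 with PSME1 gave 0.817, PSMB9 with PSMB8 0.606, and PSME1 with PSME2 0.829 over the 16 cows. The mean level of the 5 genes, relative to each gene's mean, was 0.0008 and −0.12 on slide 1 in cyclic cows and 0.19 and 0.38 on slide 2. In P150-160 it was −0.10 and −0.32 against −0.09 and 0.30, and in P40-45 −0.25 and 0.02 against −0.11 and −0.03. In P20-25 it was −0.07 and −0.02 against 0.02 and 0.18. The part of slide in these correlations was not tested.

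Genes of the interferon response, the classical inducer of the immunoproteasome, were set beside it. In P20-25 against cyclic cows, 22 of 25 tested interferon-stimulated genes had a positive change and the median was 0.62, with 0 called by limma. At an unadjusted p under 0.05, 16 were higher and 1 lower. In P40-45 and P150-160 the median was 0.01 and −0.10. In P150-160 against P20-25, ISG15, DHX58 and EIF2AK2 fell, with log2 changes of −2.15, −1.35 and −0.65 (limma adjusted p 0.0279, 0.0136 and 0.0200). In the same comparison PSMB8 changed by −0.11, PSMB9 by −0.26 and PSME2 by −0.11, none past the threshold. The mean level of this list per cow, relative to each gene's mean, was −0.33 to 0.33 in cyclic cows and 0.20 to 0.60 in P20-25 cows. Over the 16 cows, PSMB8 correlated with this level with r = 0.442 and rho = 0.459 (permutation p 0.0849 and 0.0768, adjusted over 7 relations 0.279 and 0.179), and PSME2 with r = 0.406 and rho = 0.468 (permutation p 0.119 and 0.0692, adjusted 0.279 and 0.179). For PSMB9, r was 0.246 and rho 0.241 (permutation p 0.362 and 0.365, adjusted 0.634 and 0.64). It was −0.02 on slide 1 and 0.524 on slide 2, and 0.173 without the 2 cows farthest from the median of the list. For PSMB10 and PSME1, r was 0.112 and 0.154, with an adjusted permutation p of 0.712 for both. No relation of an immunoproteasome gene passed the adjustment at this scaling. With quantile normalization PSME2 did, at r = 0.694 (permutation p adjusted 0.0084). Within slides 1 and 2, r was 0.66 and 0.332 for PSMB8 and 0.547 and 0.614 for PSME2, and without the 2 farthest cows it was 0.479 and 0.443. With group means removed, r was 0.226 for PSMB8, 0.181 for PSMB9, 0.197 for PSMB10, 0.166 for PSME1 and 0.432 for PSME2. UBE2L6, the E2 of the interferon-induced modifier ISG15, was not analysed here.

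**Figure D3:**
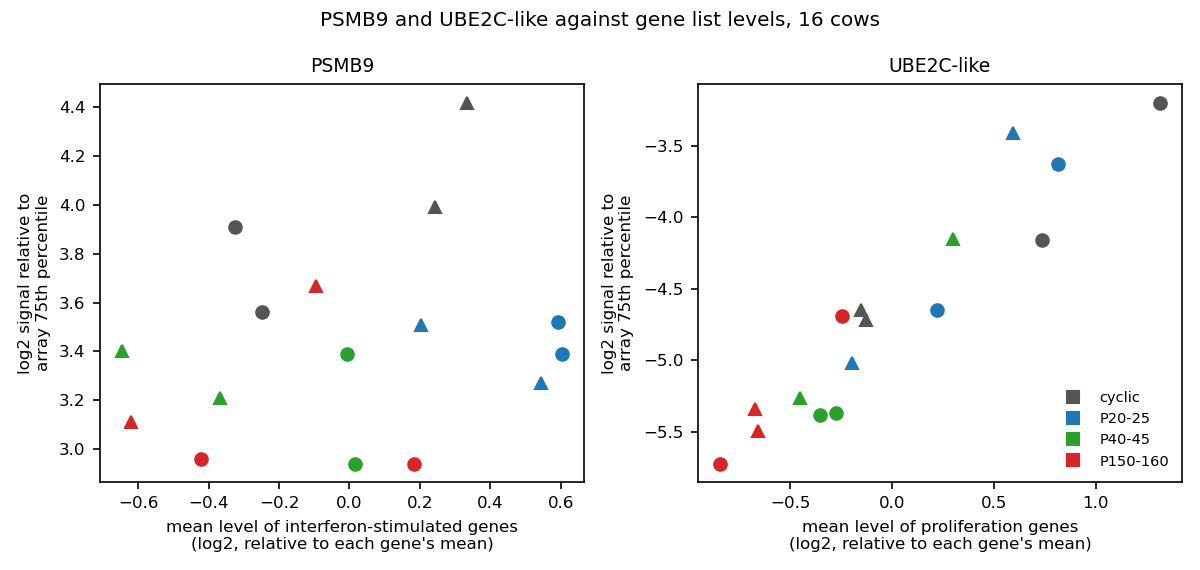
Each point is 1 cow, coloured by group, with circles for slide 1 and triangles for slide 2; the horizontal axes give the mean level of 25 interferon-stimulated genes (left) and 18 proliferation genes (right) relative to each gene's mean, and the vertical axes log2 signal relative to the array's 75th percentile. PSMB9 has no clear relation to the interferon list (r = 0.246), and the spot described as like UBE2C rises with the proliferation list (r = 0.948).

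Other genes of antigen processing and markers of immune cells are given beside PSMB9. Of 9 tested genes for MHC class I processing 0 were called by limma in any comparison against cyclic cows, and 0, 0 and 1 passed an unadjusted p under 0.05. TAP2, which encodes the partner of TAP1, changed by 0.44, −0.08 and −0.23 (SE 0.45). Of 12 macrophage markers 9, 11 and 9 were lower than in cyclic cows, with medians of −0.39, −0.75 and −0.72. CD68 was lower in P150-160 by 1.57 on the log2 scale (adjusted p 0.00277) and MRC1 by 1.03 (adjusted p 0.0218), while ITGAM was called higher there (adjusted p 0.00738) and was well above background on 1 of 4 cyclic and 4 of 4 P150-160 arrays. The mean level of the macrophage list, relative to each gene's mean, was −0.26 to 0.94 in cyclic cows, −0.25 to 0.30 in P20-25, −0.60 to −0.07 in P40-45 and −0.60 to 0.55 in P150-160. This mean holds ITGAM, which was at −4.14, −1.58, −5.46 and −3.69 in P150-160 and at −9.17 to −6.87 in cyclic cows. ITGAM raises the list's mean in P150-160, and the mean without it was not computed. Of 7 pan-leukocyte markers 5, 7 and 5 were lower, with medians of −0.15, −0.68 and −0.49, and the list's mean level was −0.16 to 0.71 in cyclic cows and −0.36 to 0.58 in P150-160. Of 13 markers of T and NK cells 4, 11 and 4 were lower, with medians of 0.12, −0.20 and 0.19, and 0 were called against cyclic cows, with 0, 0 and 1 at an unadjusted p under 0.05 by limma. The granulocyte genes CATHL1, CATHL3 and CATHL4 were called lower in each pregnant group and were not well above background on any pregnant array. IFI30, a thiol reductase of antigen processing in lysosomes, was tested in the interferon list. It was lower in P150-160 by 1.31 on the log2 scale (limma adjusted p 0.00208). The other gene of that list called there against cyclic cows, WARS1, was higher by 0.66 (limma adjusted p 0.0455). The part of immune cells in the lower PSMB9 was not tested.

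In the barrel without the immunoproteasome genes nothing was called. Of the 7 alpha subunits PSMA1 to PSMA7, which form the outer rings and the gate, 0 were called in any comparison, and their changes against cyclic cows lay between −0.22 and 0.22. The lowest was that of PSMA7 in P40-45, and PSMA2 and PSMA4 changed by −0.20 and −0.18 in P150-160. PSMA6 was at 3.15 to 3.55 in cyclic cows, 3.13 to 3.34 in P20-25, 3.19 to 3.37 in P40-45 and 3.02 to 3.59 in P150-160, all overlapping. A second spot, described as like PSMA6 and sharing 40 bases with its probe, gave changes of −0.09, 0.02 and −0.07 where PSMA6 gave −0.08, −0.02 and −0.03. Of the 5 constitutive beta subunits 0 were called. PSMB6, a catalytic subunit, had the lowest change among them: −0.41 ± 0.17 (SE) in P150-160, with a limma adjusted p of 0.161. Its levels there were 2.19, 2.31, 2.92 and 2.78, against 3.01, 2.61, 3.05 and 3.15 in cyclic cows, with the 2 lowest on slide 1. PSMB1 had the highest, 0.46 ± 0.26 (adjusted p 0.308).

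**Figure D4:**
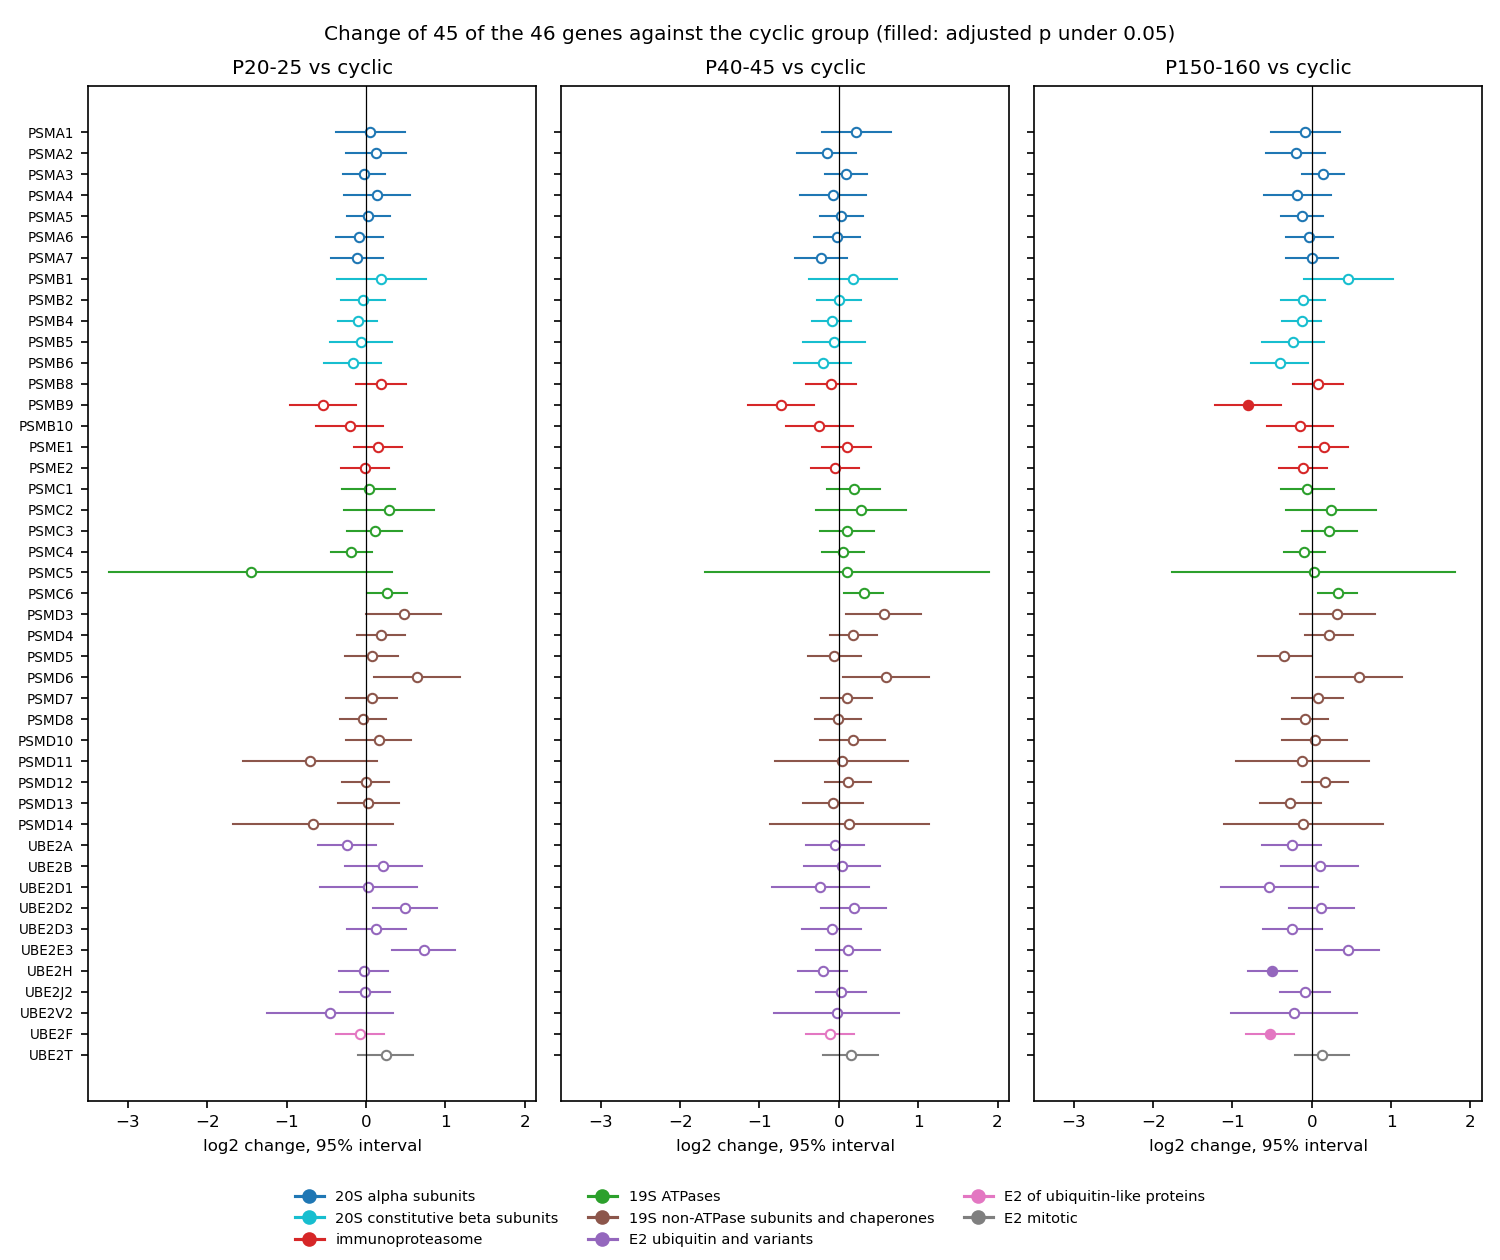
Each point is the log2 change of 1 gene, for 45 of the 46, against the cyclic group with its 95% interval from limma, in 3 panels for the pregnant groups, coloured by role (E2 stands for ubiquitin-conjugating enzymes) and filled where the adjusted p was under 0.05. The filled points are PSMB9, UBE2F and UBE2H in P150-160, and the long intervals of PSMC5, PSMD11 and PSMD14 come from P20-25 replicate 4.

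The cap of the proteasome gave no call in any comparison, with 6 ATPases and 11 other subunits and chaperones tested. PSMC6, an ATPase of the ring that unfolds substrates, had levels of −0.11, −0.28, −0.03 and −0.04 in cyclic cows. Its levels were 0.16, 0.14, 0.11 and 0.20 in P20-25, 0.38, 0.10, 0.32 and 0.00 in P40-45, and 0.06, 0.36, 0.19 and 0.25 in P150-160. All 12 pregnant cows lay above all 4 cyclic cows, by changes of 0.27, 0.31 and 0.33 (SE 0.12) with limma adjusted p of 0.315, 0.210 and 0.0990. PSMC2, another ATPase of the ring, had changes of 0.29, 0.28 and 0.24 (SE 0.27), with cyclic cows spread from −1.69 to −0.39. Groups that do not overlap were found for 3, 2 and 3 of the 46 genes in P20-25, P40-45 and P150-160, beside 7.45%, 9.7% and 11.7% of all probes. PSMD6, a subunit of the lid, had changes of 0.65, 0.59 and 0.59 (SE 0.25), with adjusted p of 0.273, 0.285 and 0.170, on a range of −3.99 to −3.15 in cyclic cows and −3.54 to −2.39 in pregnant cows. PSMD3, another subunit of the lid, had changes of 0.48, 0.57 and 0.32 (SE 0.22), none past the threshold. PSMD5, a chaperone of cap assembly, changed by −0.34 ± 0.16 in P150-160 (adjusted p 0.198).

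The 3 lowest changes of the family in P20-25, and that of UBE2V2, rested on 1 cow. PSMC5, an ATPase of the cap, was at 4.08, 4.06, 4.33 and −1.01 in P20-25 cows and at 4.00 to 4.64 in the other 12 cows. PSMD14, the enzyme of the cap that removes ubiquitin chains, was at 2.09, 2.17, 2.21 and −0.60, and PSMD11, a lid scaffold, at 3.14, 3.14, 3.45 and 0.98. UBE2V2, a conjugating enzyme variant without an active site that pairs with UBE2N, was at −0.11, −0.09, 0.03 and −1.95. In each case the low value was that of replicate 4. The change of PSMC5 in P20-25 was −1.45 ± 0.84 (SE, limma adjusted p 0.436) with this cow and −0.16 ± 0.17 without it. That of PSMD11 went from −0.71 to −0.14, that of PSMD14 from −0.67 to 0.02 and that of UBE2V2 from −0.45 to 0.03. These were the 4 of the 46 genes that lay over 1 from their group mean on this array, where 10.23% of all probes tested did. On each of the other 15 arrays 0 of the 46 did, beside 2.102% to 7.973% of all probes tested. On the same array PSMD13, a lid subunit, was high, at 3.28 against 2.82 to 2.87 in the other P20-25 cows.

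Further spots of the family, outside the symbol rule but described as like its genes, were low on that array too. The spot like PSMD12 was at −1.48 against 0.08 to 0.32 in the other P20-25 cows, that like UBE2G2 at −1.50 against 0.48 to 0.84, and that like UBE2V1 at −0.88 against 0.55 to 0.73. The rule's own spot for PSMD12 was at 0.10 on this array against −0.22 to −0.04, so the 2 spots described as PSMD12 went opposite ways there. Their probes share no run longer than 6 bases. What sets this array apart was not tested. The correlation of PSMC5 and PSMD14 within groups was 0.948 over 16 cows and 0.193 without this cow, and that of PSMD11 and PSMD14 went from 0.869 to −0.22.

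**Figure D5:**
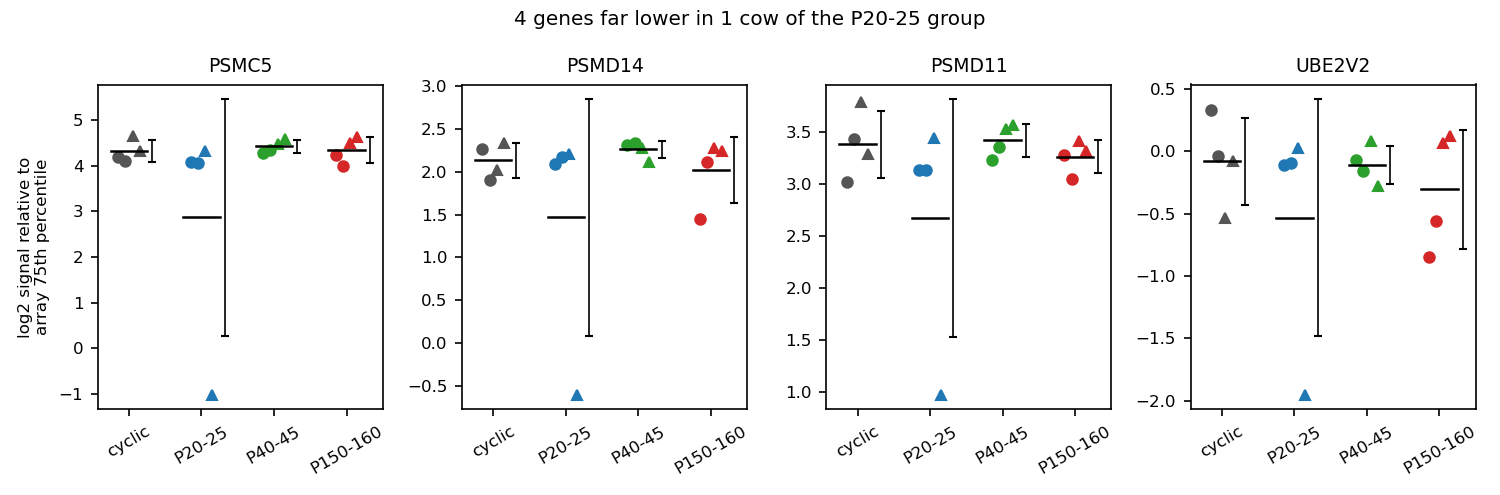
Points are cows, circles for slide 1 and triangles for slide 2, with group on the horizontal axis and log2 signal relative to the array's 75th percentile on the vertical axis; bars are means and brackets 1 SD. In all 4 panels the lowest of the 16 points is P20-25 replicate 4, at −1.01 for PSMC5, −0.60 for PSMD14, 0.98 for PSMD11 and −1.95 for UBE2V2.

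Among the 12 ubiquitin-conjugating enzymes, 2 were called lower in P150-160 against cyclic cows. Of all probes 7.98% were called in that comparison, and 3.32% were called lower. UBE2F, which conjugates the ubiquitin-like protein NEDD8 to cullins, was at 1.42, 1.16, 1.16 and 1.46 in cyclic cows and at 0.50, 0.58, 1.00 and 1.03 in P150-160 cows. Its levels were 1.13 to 1.38 in P20-25 and 1.06 to 1.36 in P40-45, so all P150-160 cows lay below the other 12. The change in P150-160 against cyclic cows was −0.52 ± 0.14 (SE, limma adjusted p 0.0372), or 1.44-fold lower. It was −0.75 within slide 1 and −0.29 within slide 2, with adjusted p of 0.0765 and 0.641. The adjusted p was 0.17 when only the 2 groups were fitted and 0.0524 without the filter on dim probes. Without P150-160 replicate 1 or 2 it was −0.43 and −0.46, with adjusted p of 0.0928 and 0.102. Without cyclic replicate 1 or 4 the adjusted p was 0.0852 and 0.0961, and without P20-25 replicate 2, P40-45 replicate 2 or P40-45 replicate 3 it was 0.052, 0.052 and 0.051.

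UBE2H, an E2 that can act on histones, was at −2.26, −1.85, −2.21 and −2.11 in cyclic cows and at −2.54, −2.73, −2.68 and −2.47 in P150-160 cows. These groups did not overlap, and the levels of P20-25 and P40-45, −2.49 to −1.83 and −2.46 to −2.22, lay between or overlapped them. The change was −0.50 ± 0.15 (SE, limma adjusted p 0.0489), or 1.41-fold lower. This call was the weakest: it was lost on leaving out any of 13 of the 16 arrays, with adjusted p of 0.0339 to 0.121 over all 16, the exceptions being P20-25 replicates 1, 3 and 4. The adjusted p was 0.2 within slide 1, 0.536 within slide 2, 0.131 when only the 2 groups were fitted, 0.0665 without the filter, 0.0513 with quantile normalization and 0.0807 with normexp background.

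In the fit over all 16 arrays, UBE2F changed by −0.45 and −0.41 in P150-160 against P20-25 and P40-45, with limma adjusted p of 0.148 and 0.359, and UBE2H by −0.47 and −0.29, with adjusted p of 0.134 and 0.572. Between pregnant groups 0 of the 46 genes were called in P40-45 against P20-25, P150-160 against P20-25 and P150-160 against P40-45, where 0.0335%, 1.57% and 0.0419% of all probes were, and limma counted 1, 4 and 1 at an unadjusted p under 0.05. The F test over the 4 groups called 0 of 46, beside 3.85% of all probes, and counted 5 at an unadjusted p under 0.05. The smallest adjusted p of that test was 0.072, for PSMB9. With slide as a block the F test called 2, PSMB9 and UBE2E3, and with quantile normalization 1, PSMB9. It called PSMB9 without cyclic replicate 2 or P150-160 replicate 4, and UBE2E3 without P150-160 replicate 3.

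The other conjugating enzymes gave no call. UBE2E3 had the highest change of the 46 genes in P20-25. It was at −6.43, −6.19, −6.62 and −6.87 in cyclic cows and at −5.70, −5.86, −5.97 and −5.66 in P20-25 cows, without overlap. The change was 0.73 ± 0.19 (SE, limma adjusted p 0.108), and the probe was dim. UBE2D2 and UBE2D1, broad-range conjugating enzymes that serve many ligases, changed by 0.49 ± 0.19 in P20-25 (adjusted p 0.266) and by −0.54 ± 0.29 in P150-160 (adjusted p 0.277). UBE2T, an E2 of DNA crosslink repair, changed by 0.25, 0.15 and 0.13 (SE 0.16). UBE2A, UBE2B, UBE2D3 and UBE2J2 had changes between −0.25 and 0.22.

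Genes of cell division were set beside the spot described as like UBE2C, a conjugating enzyme of the anaphase-promoting complex, which lies outside the symbol rule. Its level was −3.20, −4.16, −4.72 and −4.65 in cyclic cows and −4.69, −5.72, −5.34 and −5.49 in P150-160 cows, a change of −1.13 ± 0.42 (SE, limma adjusted p 0.115). In P20-25 and P40-45 the change was 0.01 and −0.85. Over the 16 cows it followed the mean level of 18 proliferation genes with r = 0.948 and rho = 0.938 (permutation p 1e-05 for both, the smallest that the resampling can give, and 7e-05 after adjustment). It was 0.967 and 0.979 within slides 1 and 2, 0.917 with group means removed and 0.912 without the 2 farthest cows. UBE2T gave r = −0.10 and rho = −0.14 (permutation p 0.712 and 0.607, adjusted 0.712 and 0.717). Of the proliferation genes 17 of 18 had a negative change in P150-160, with a median of −1.06, and AURKB, CCNB2 and PRC1, which act in mitosis, fell, with log2 changes of −2.44, −1.996 and −1.74 (adjusted p 0.000274, 0.0178 and 0.0190).

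Many of the 46 genes were low in 1 further cow. On the array of P150-160 replicate 1, 20 of the 46 genes had their lowest level of all 16 arrays, beside 11.88% of all probes tested, and the median deviation of the 46 genes from their means was −0.28. On the other 15 arrays this median lay between −0.09 and 0.15. UBE2F and the beta subunits PSMB5 and PSMB6 were among these 20, and PSMB5 was at 2.18 on that array against 2.64 to 3.11 on the other P150-160 arrays. Within groups UBE2F correlated with PSMB5 by 0.915 and with PSMB6 by 0.879. Both were among the highest values of the 1035 pairs of the 46 genes and were not computed without this cow or with slide removed. Without this cow the median change of the 41 genes other than the immunoproteasome in P150-160 was 0.01, and with it −0.08. It was −0.08 within slide 1 and 0.09 within slide 2. PSMD6 ran against PSMD8, a lid subunit, within groups, at −0.886, the lowest value of all pairs.

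Partners of these genes in the pathway are given beside all probes. Against cyclic cows, 0.293%, 1.23% and 7.98% of all probes were called in P20-25, P40-45 and P150-160. By limma at an unadjusted p under 0.05 these shares were 14.1%, 14.7% and 23.5%. The inhibitor and assembly genes of the proteasome, 7 tested, gave 0 calls by limma in the comparisons against cyclic cows and 0 at an unadjusted p under 0.05. The 6 tested genes for ubiquitin and its E1 enzymes gave 0 calls and 2, 2 and 2 at an unadjusted p under 0.05. UBB, a polyubiquitin gene, was 1 of these each time. It was at 1.25, 1.05, 1.00 and 1.31 in cyclic cows and at 1.54 to 1.66 in P20-25, without overlap. Its changes were 0.47, 0.39 and 0.38 (SE 0.15), with limma adjusted p of 0.142 to 0.241. Of 31 ligase genes, NEDD4 fell in P40-45 by 1.08 on the log2 scale (adjusted p 0.0455). RNF7, the RING protein that works with UBE2F on cullins, was called higher in P150-160 (adjusted p 0.00388), on a probe well above background on 1 of 4 cyclic and 4 of 4 P150-160 arrays. Of 15 deubiquitinases, USP18, which removes ISG15, was called lower only in P150-160 against P20-25, where it fell by 1.33 on the log2 scale (adjusted p 0.0438). Of 9 genes for degradation at the endoplasmic reticulum 0 were called against cyclic cows, and 1, 0 and 3 passed an unadjusted p under 0.05. Of the 17 spots outside the symbol rule but described as like genes of the family 0 were called.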

How the data were processed

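Total RNA of 16 corpora lutea, 4 cows per group, was amplified, labelled with Cy3 and hybridised to 1-colour bovine arrays, per the labels' protocols. Scans were read with Agilent Feature Extraction 9.5, per the submitters' processing notes. The deposited processed signal is an intensity, background-subtracted per the file headers. The deposited value table is on a log2 scale; each column equals log2 processed signal minus a constant (largest departure 0.00461, column medians −3.18 to −2.98), and it was used as an alternative. From the intensities, 536 control spots were left out and 220 spot values with outlier flags set to missing; log2 signal minus the array's 75th percentile was used. A probe was tested when well above background without a flag on at least 3 of 4 arrays of a group: 11941 probes, of which 11940 entered comparisons of P150-160. Fits used limma 3.58.1 (lmFit, eBayes) in R 4.3.3 on all 16 arrays with group as the term, two-sided, Benjamini-Hochberg over all probes tested, called at an adjusted p under 0.05. The fit was tested on simulated data.

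The 46 members, the gene lists and the tests were chosen with earlier results of these data known. Named genes were the 5 immunoproteasome subunits, called members, the 5 highest and 5 lowest changes against cyclic cows, the 2 smallest F-test p-values of each role, and up to 4 called genes of each pathway list; other members were named after their values were seen. The spots described as like a gene were identified from the description of the array design. Within-array differences were tested by exact permutation over cows, correlations with 100000 resamples. Alternatives were quantile normalization, normexp background with offset 50, the deposited table, a floor, other filters, slide and replicate blocks, single slides, the 2 groups alone and each array left out. Proteins, promoters and the values of 1 member are not reported here. The labels' replicate numbers were checked for pairing across groups. Deviations of same-numbered cows correlated above 0.1 in 9 of 24 pairs (median 0.09). Cows with other numbers on the same slide did so in 10 of 24 (median 0.05), and cows on different slides in 0 of 48 (median −0.09). Numbers were therefore not taken as pairs. Arrays of 1 slide were thus more alike than arrays of different slides, and the main fit had no slide term.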

Additional observations from a re-analysis of the deposited data

Results flagged for a closer look

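In 320 sets of 4 cows, covering 45 of the 46 genes, the 17 spots like them and 18 other genes, 31 had 1 cow far from the other 3 by Dixon's test at its 95% critical value; chance gives about 1 in 20. Of these 12 were P20-25 replicate 4. On that array the level was −1.01 for PSMC5, −0.60 for PSMD14, 0.98 for PSMD11, −1.95 for UBE2V2, 1.15 for PSMD10, 3.28 for PSMD13 and 2.61 for UBE2J2. The spots like other genes of the family stood at −1.50 (UBE2G2), −0.88 (UBE2V1), −1.48 (PSMD12), 1.63 (PSMB3) and 1.19 (UBE2K). PSMD10, PSMD13 and UBE2J2 were above, and the other 9 below, the other 3 cows of the group.

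P150-160 replicate 1 was apart for PSMD10, at 0.13 against 0.79 to 0.91, for PSMD7, at 2.68 against 3.22 to 3.31, and for AURKB, at −3.68 against −4.43 to −4.31. Cyclic replicate 1 was apart for AURKB (−1.09) and for the spots like PSMD9 (−2.30) and UBE2E2 (−1.07), and P40-45 replicate 4 for PSMA3 (2.52), USP18 (−2.30), CCNB2 (−3.46) and the spot like UBE2C (−4.15).

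The remaining cases were PSMA2 in P20-25 replicate 2 (1.89), PSMA4 in P40-45 replicate 3 (1.90), PSMD7 in cyclic replicate 4 (3.20), PSME2 in P40-45 replicate 2 (3.27), UBE2B in P20-25 replicate 3 (−1.28), the spot like PSMD9 in P20-25 replicate 3 (−2.48), the spot like PSMB3 in P150-160 replicate 3 (2.61), EIF2AK2 in cyclic replicate 3 (−3.80) and CATHL4 in P20-25 replicate 1 (−9.32).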

How the results depend on the processing

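In P150-160 against cyclic cows the number of members called was 3; it was 1 without the filter on dim probes, 0 within slide 1, 0 within slide 2, 0 with only these 2 groups fitted, and 0 to 3 with each array left out. It was 0 without cyclic replicate 4, P150-160 replicate 1 or P150-160 replicate 2. With a replicate block, P40-45 against cyclic cows gave 1 call, PSMB9 (adjusted p 0.0409), in place of 0, and UBE2H in P150-160 had an adjusted p of 0.0508; the numbers do not pair the cows. The F test called 0 members, and 1 with quantile normalization, 2 with slide as a block, 1 with the replicate block and 0 to 1 with each array left out. The median change of the members other than the immunoproteasome was −0.08 in P150-160 against cyclic cows and −0.11 against P40-45, but 0.0857 and 0.0317 within slide 2. The correlation of PSME2 with the interferon list was 0.406, and 0.694 (permutation p adjusted 0.0084) with quantile normalization. The cause was not tested. PSMB9 was called in 21, UBE2F in 16 and UBE2H in 7 of 27 alternatives each in P150-160, with the same sign in all 27. Set against the alternatives, set results were counted as the same in 750 cases, as moved in 20 and as newly passed in 1. Tests counted as the same when they kept their side of the threshold, and medians when they lay within the spread between cows. Numbers of calls in a comparison counted as the same when they differed by up to 1.5-fold, so 3 and 2 calls did, as did 0 and 0. A turned direction was looked for only in tests, and none turned past the threshold. Every member had 1 spot, so averaging spots changes nothing. With 4 cows a group, changes under about 1.5-fold were within the interval for many genes.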

Other observations

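Of 15 tested endothelial markers 13, 12 and 12 had a positive change in P20-25, P40-45 and P150-160 against cyclic cows, with medians of 0.46, 0.17 and 0.37. Of all probes tested 57.1%, 52.2% and 52.7% had a positive change. At an unadjusted p under 0.05, limma counted 8, 4 and 8 of the 15, beside 14.1%, 14.7% and 23.5% of all probes. It called 0 in P20-25 and P40-45 and 3 in P150-160, beside 0.293%, 1.23% and 7.98% of all probes. In P150-160 the endothelial receptors FLT1, ENG and TEK rose by 1.42, 1.13 and 0.85 on the log2 scale (limma adjusted p 0.0157, 0.0147 and 0.0350). The mean level of the list was −0.40 to −0.15 in cyclic cows, 0.07 to 0.34 in P20-25, −0.17 to 0.00497 in P40-45 and −0.34 to 0.74 in P150-160, so that P20-25 did not overlap the cyclic group and P150-160 did. JCHAIN, a gene of antibody-secreting cells, fell in P40-45 by 1.71 and in P150-160 by 1.31 on the log2 scale (limma adjusted p 0.0399 and 0.0422). It was 1 of only 3 tested markers of B and plasma cells. Of these, 2 were lower and 1 higher than in cyclic cows in each pregnant group.

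The spot described as like UBE2O, a large E2 that can also act as a ligase, was at −1.85, −0.96, −1.26 and −1.61 in cyclic cows and at −0.36, −0.66, −1.16 and −0.78 in P150-160 cows. Its change was 0.68 ± 0.21 (SE, limma adjusted p 0.0626), and the groups overlapped.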
